A study of Mus musculus with 6 samples.

Results

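The cytosolic ribosomal protein genes encode the proteins of the ribosome that works outside the mitochondria. They were taken as all genes of the deposited tables whose symbol is Rpl or Rps followed by a digit, or Rplp0, Rplp1, Rplp2 or Rpsa, leaving out the 10 Rps6k kinase genes and the 16 symbols that end in -ps and a number. This gave 87 of 28692 genes, 53 starting with Rpl and 34 starting with Rps. In all, 86 of the 87 had a unique molecular identifier (UMI, a tag that counts 1 captured transcript once), and Rpl10l had none. Rps19bp1 and Rpl7l1 match the rule by symbol and are not ribosomal proteins. The ribosomal proteins Fau and Gnb2l1 (RACK1) do not match it and were followed apart from the members.

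The study sampled C57BL/6 mice in experimental autoimmune encephalomyelitis (EAE), a model of multiple sclerosis in which the immune system attacks myelin. Cells were taken on days 0, 13 and 21 from wild-type animals (WT) and from knockouts of miR-155 (KO), a microRNA of activated leukocytes, with 5 mice in each of the groups. The mice of day 0 were unimmunized, so day 0 and the later days differ in immunization too. Live, DAPI-negative, CD45-positive cells were sorted, and each of the 6 groups gave 1 droplet library of transcript 3′ ends. The labels name brain as the tissue and their protocol also names spinal cord, and they do not say which cells or which part of the locus the KO allele affects. Whether each library pooled its 5 mice is likewise not given in the labels. The titles carry a number that is the same for the WT and KO library of a day and differs between days, so day and whatever that number marks cannot be told apart.

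Every ribosome has a small subunit, built from RPS proteins, which reads the messenger RNA, and a large subunit, built from RPL proteins, which joins the amino acids. Subunits are assembled in the nucleolus from near-equal numbers of each protein. Many mouse ribosomal protein messages begin with a run of pyrimidines at their cap, the 5′ terminal oligopyrimidine (TOP) motif, through which mTOR signalling sets their translation and storage. Resting lymphocytes are small cells with a high proportion of these messages, and neutrophils are short-lived cells that have stopped dividing and are filled with granule proteins.

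The start sites of members to which the results below return are shown here because the TOP motif lies at them. RefSeq promoter windows (build GRCm38.p6, the same build as the mm10 named in the submitters' processing notes) matched 66 of the 87 members. The 30 bases printed run from 15 before the annotated start to 15 from it, in the gene's own direction, and capitals mark the run of C and T that begins with a C at that start.
Rps27 (chr3:90213634-90213663, minus strand): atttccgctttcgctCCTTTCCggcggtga
Rps27rt (chr9:114982725-114982754, minus strand): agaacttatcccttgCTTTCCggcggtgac
Rps28 (chr17:33824548-33824577, minus strand): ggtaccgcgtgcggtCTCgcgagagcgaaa
Rpl38 (chr11:114668565-114668594, plus strand): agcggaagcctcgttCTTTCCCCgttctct
Rpl35 (chr2:39005117-39005146, minus strand): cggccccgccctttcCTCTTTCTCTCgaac
Rps18 (chr17:33955651-33955680, minus strand): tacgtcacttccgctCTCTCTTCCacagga
Rps27l (chr9:66946071-66946100, plus strand): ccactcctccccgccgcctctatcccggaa
Rps27 and its near copy Rps27rt share the stretch after the run, and Rps27l, their divergent paralog, has no C at its annotated start. A C followed by at least 4 pyrimidines, searched on the gene's strand alone, stood exactly at the annotated start of 13 of the 66 members (19.7%) and of 2.49% of all 27025 promoters. Within 10 bases of the start it stood in 37 members (56.1%) and in 30.8% of all promoters. A match describes these letters and not the start that a cell uses.

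The libraries held 1681 to 5630 barcodes, 20030 in all, with 6321841 to 24243660 UMIs per library and 3021 to 4375 UMIs in the median barcode. The gene that hosts miR-155, Mir155hg, had 2, 45 and 59 UMIs over the course of days in WT and 0, 0 and 1 in KO. Any pair of libraries shared 5 to 32 barcodes. Cells were placed in a class when they had UMIs of at least 3 of its marker genes and more than 2 times as many as of any other class, which left 7.93% to 37.2% of the cells of a library in no class. All markers fixed for the microglia, T, B, NK and neutrophil classes were found in their own gated cells on day 0 in WT, and 7 of 8 for the monocyte/macrophage class.

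Ribosomal protein genes made up very different parts of the RNA of the immune cell classes. They gave 33.7% ± 4.62 (SD, n = 6 libraries) of the UMIs of T cells and 32.4% ± 6.87 of those of B cells, the lymphocytes of adaptive immunity. Natural killer (NK) cells, cytotoxic lymphocytes of innate immunity, followed with 25.7% ± 5.25, and monocytes and macrophages, phagocytes from the blood, with 19.6% ± 1.97. Microglia, the resident macrophages of the brain, had 13.8% ± 4.55. Neutrophils had 5.08% ± 1.54.

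Most class pairs kept their direction in every library. T cells exceeded microglia by 19.99 percentage points (6 of 6 libraries, 11.97 to 31.2 points). Monocytes/macrophages exceeded microglia by 5.89 points (6 of 6, 1.11 to 12.3), and microglia exceeded neutrophils by 8.68 points (6 of 6, 4.45 to 12.4). Of the 15 class pairs, 12 had the same direction in all 6 libraries. Each of these 12 gave p = 0.0312 in an exact two-sided sign-flip permutation test over libraries, the smallest p that 6 libraries allow, and 0.0391 after Benjamini-Hochberg adjustment over the 15 pairs. The neighbours T and B could not be ordered (T higher by 1.32 ± 11.3 points, in 2 of 6 libraries, exact permutation p = 0.781). T against NK cells, and NK cells against monocytes/macrophages, each held in 5 of 6 libraries (exact permutation p = 0.0938, adjusted 0.100). The 6 libraries differ in genotype and day, so these SDs include both.

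**Figure D1:**
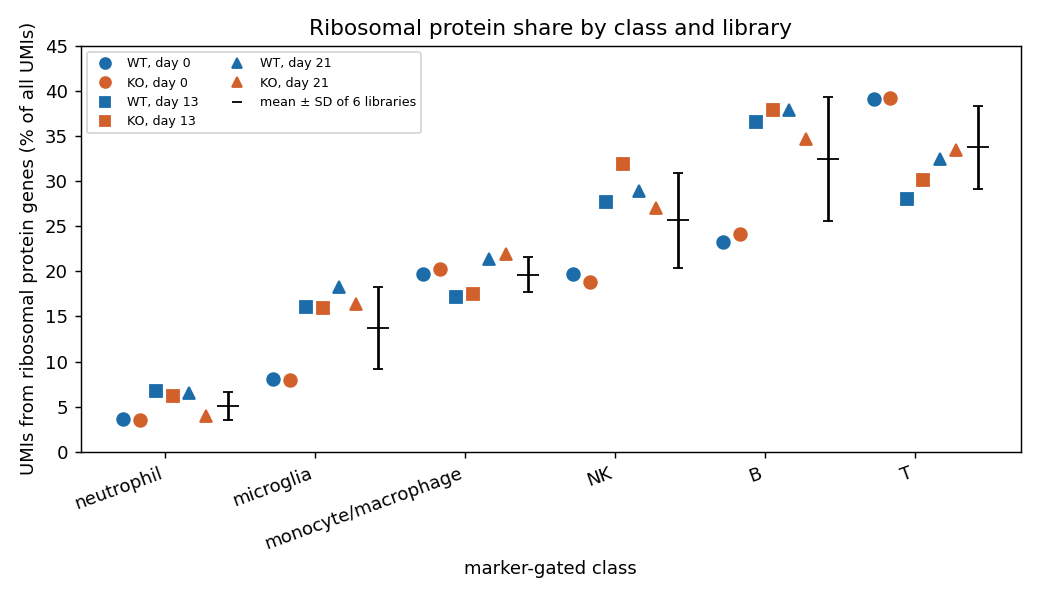
The plot shows the share of UMIs from ribosomal protein genes (percent, vertical axis) in each marker-gated class, with 1 point per library and the mean ± SD of the 6 libraries as a bar. Neutrophils lie lowest at 3.51% to 6.71%, T and B cells highest, and the day 0 libraries stand apart within microglia, T, B and NK cells.

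Dendritic cells had at least 20 gated cells in only some libraries. Conventional dendritic cells, which present antigen, had 18.7% (WT) and 18.9% (KO) on day 13 and 25.1% in WT on day 21. The balance of the subunits moved little beside these differences: small-subunit genes gave 41.8% to 43.6% of the ribosomal protein UMIs of NK cells, 42.4% to 43.7% in microglia, 44.5% to 45.7% in B cells and 46.8% to 48.4% in neutrophils. In T cells they gave 45.7% and 45.9% on day 0 and 42.9% and 43.4% on day 13, in WT and KO.

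Most single members followed their class. Between T cells and microglia, 79 of 85 members tested were higher in T cells and 1 was lower, where 29.7% of all 9981 genes were called higher and 34.1% lower (edgeR quasi-likelihood test with library as a block, Benjamini-Hochberg adjusted p under 0.05). The median member had a log2 fold change of 1.37, against -0.04 over all genes. The member farthest above this median was Rpsa, the laminin-receptor protein of the small subunit (log2 fold change 2.20 ± 0.30 SE, edgeR adjusted p = 3.60e-05). It had 3965, 3370, 3785, 3977, 3891 and 3453 CPM (counts scaled to the same total in each class and library) in T cells, in the order WT then KO for day 0, day 13 and day 21. Microglia had 424, 398, 1180, 1255, 1306 and 892 CPM. The T cell levels lay close together and far above all microglial ones.

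The exception below 0 in T cells was Rpl7l1, which by sequence resembles RPL7 and is a biogenesis factor of the large subunit (-0.54 ± 0.12, edgeR adjusted p = 0.002). Between B and T cells only 1 of 84 members tested was called higher and 1 lower, where 14.2% and 16.2% of all genes were. These were Rpl7l1, higher in B cells (0.61 ± 0.13), and Rps27l, lower (-0.51 ± 0.18). In monocytes/macrophages 72 of 85 members were higher than in microglia and 0 were lower, against 26.5% of all genes called higher and 31.4% lower, with a median of 0.78 against -0.12. Rpsa (1.41 ± 0.23) and the stalk protein Rplp0 (1.34 ± 0.22) lay farthest above it together with Rpl36al (1.35 ± 0.15). No member was called lower there by DESeq2 either, and 76 members had an unadjusted edgeR p under 0.05 in either direction. Both counts lack the share of all genes beside them and describe sensitivity alone.

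Neutrophils stood at the other end. Here 78 of 85 members were lower than in monocytes/macrophages, where 33.9% of all genes were, and 1 was higher, where 30.2% were. The median log2 fold change was -0.97 against -0.09 over all genes. With total-count scaling in place of TMM, which estimates a scale from the bulk of the genes, these medians were -2.07 and -1.15, so the distance from the other genes stayed while the size did not. Rpl3, a core protein of the large subunit near its catalytic centre, fell most (-2.23 ± 0.23, edgeR adjusted p = 1.98e-06). Its neutrophil levels were 156, 102, 430, 372, 336 and 154 CPM in the same library order. In monocytes/macrophages they were 2630, 2372, 2105, 2031, 2645 and 2352 CPM, so that the groups did not overlap.

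The called exception was Rpl3l, the paralog of Rpl3 known from striated muscle. It had 7, 5, 14, 6, 24 and 19 UMIs in the neutrophils of the 6 libraries, which is 7.96, 17.6, 7.11, 6.67, 9.15 and 9.96 CPM. Monocytes/macrophages had 1, 0, 7, 9, 0 and 10 UMIs, the last of which is 8.51 CPM in the KO library of day 21 and reaches into the neutrophil range. The fitted log2 fold change of 2.70 ± 0.51 (edgeR adjusted p = 3.98e-04) depends on the prior count where a library is at 0. Rpl3l stayed below Rpl3 in all 6 neutrophil libraries.

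**Figure D2:**
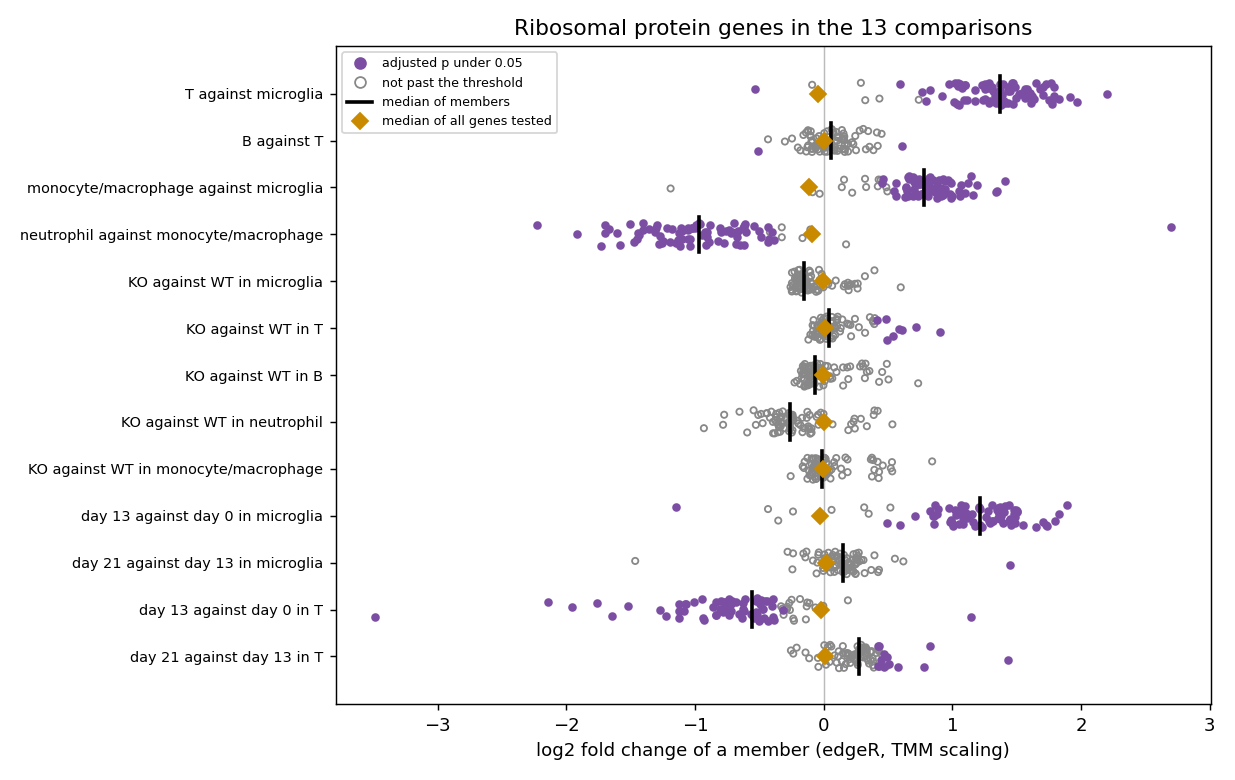
Each point is 1 ribosomal protein gene in 1 of the 13 edgeR comparisons (log2 fold change, horizontal axis), filled where its adjusted p is under 0.05. Bars mark the median of the members and diamonds the median of all genes tested. Members lie to the right of all genes for T cells and monocytes/macrophages against microglia and for microglia on day 13, and to the left for neutrophils and for T cells on day 13.

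Microglia gained in ribosomal protein share over the disease course. The share of ribosomal protein UMIs was 8.04% (WT) and 7.95% (KO) on day 0. It was 16.0% and 15.9% on day 13, and 18.3% and 16.3% on day 21. The day 13 share was 1.99 times that of day 0 in WT and 2.00 times in KO. The whole population had shifted: the quartiles of WT microglial barcodes were 6.34% and 8.80% on day 0 and 12.5% and 18.4% on day 13. In UMIs, the median WT microglial barcode had 242 from ribosomal protein genes among 3188 on day 0, and 446 among 2863 on day 13. The counting intervals of these shares are under 0.2 points wide and cover counting error only. How much RNA a cell held cannot be told apart from how much of it was captured.

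**Figure D3:**
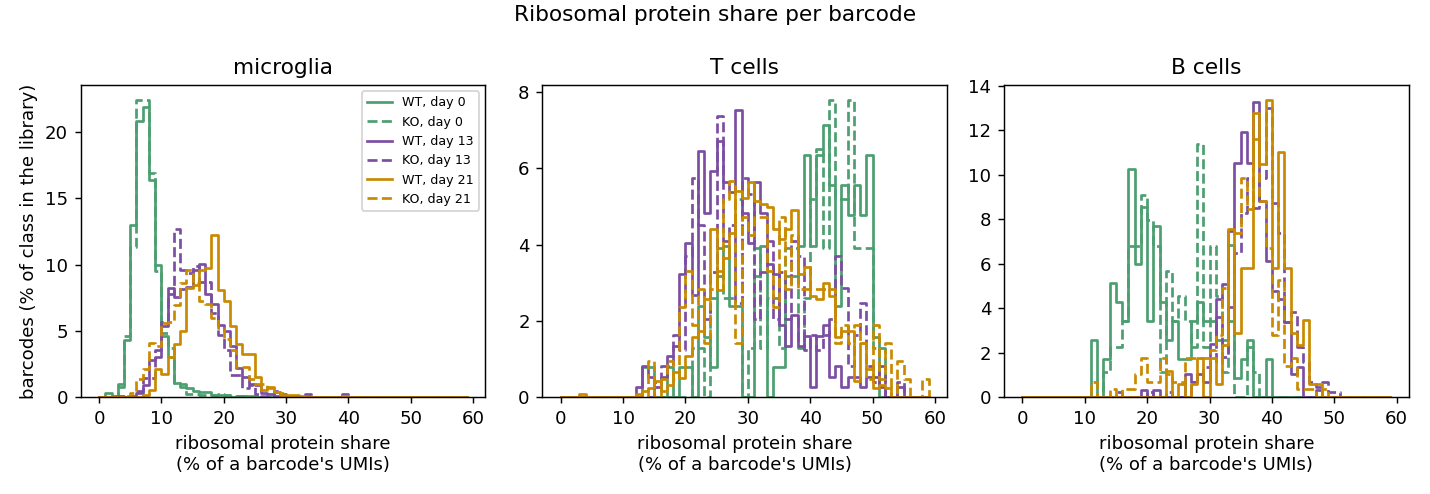
The steps give the share of gated barcodes (percent of the class in a library, vertical axis) in bins of 1 percentage point of ribosomal protein UMIs (horizontal axis), for microglia, T cells and B cells. Microglial curves of day 0 centre near 7.54% and those of days 13 and 21 near 15% to 18%, while the T cell curves of day 0 lie to the right of the later ones and the B cell curves of day 0 to the left.

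Gene by gene, 76 of 85 members rose in microglia from day 0 to day 13 and 1 fell, where 16.2% of all 10448 genes rose and 13.9% fell (2 libraries per day, genotype as covariate, edgeR adjusted p under 0.05). The median member had a log2 fold change of 1.22, against -0.03 over all genes. With total-count scaling the medians were 0.99 and -0.25. Rps20, a protein of the small subunit's head, lay farthest above the median (1.89 ± 0.18, adjusted p = 5.42e-06). Its microglial levels were 560 and 518 CPM on day 0 in WT and KO, 1706 and 1714 CPM on day 13, and 2025 and 1414 CPM on day 21. Rpl32 (1.83 ± 0.17), Rpsa (1.80 ± 0.19), Rps2 (1.74 ± 0.18) and Rps18 (1.73 ± 0.17) followed. All 4 later libraries exceeded both day 0 libraries for Rps20.

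Other members lagged. Rps27rt fell (-1.15 ± 0.23, adjusted p = 0.002), from 70.01 and 136 CPM on day 0 to 39.5 and 31.3 CPM on day 13, in WT and KO. Its spliced sequence is identical to that of Rps27 over 341 bases, so values of Rps27rt are uncertain here and below. Rpl23a (0.49 ± 0.16), Rpl15 (0.59 ± 0.15) and Rps21 (0.71 ± 0.15) rose by less than the median. Rps28 (0.31 ± 0.18, adjusted p = 0.222), Rps27 (0.35 ± 0.16, 0.122) and Rps29 (0.52 ± 0.19, 0.053) did not pass the edgeR test. From day 13 to day 21 only Rps27rt was called in microglia, where it rose (1.45 ± 0.24, edgeR adjusted p = 0.011). Of all genes, 0.613% rose and 1.24% fell. No member was called without the KO library of day 13 and 5 were without the WT library of day 21.

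Other features of the gated microglia moved with the days. Their 9 own markers summed to 20445 and 21275 CPM on day 0 (WT, KO) and to 7242 and 6153 CPM on day 13. The 8 monocyte/macrophage markers summed to 38.5 and 34.0 CPM on day 0 and to 255 and 277 CPM on day 13. Cells with at least 2 of the genes H2-Aa, H2-Ab1, H2-Eb1 and Cd74 (antigen presentation) were 3.95% and 4.50% of microglia on day 0 and 94.9% and 99.5% on day 13. In the KO library of day 21, which held both kinds, the ribosomal protein share was 16.8% in cells with at least 2 of them and 14.7% in cells with none. Cells with at least 2 of the immediate early genes Fos, Jun, Egr1 and Atf3, which dissociation of tissue can induce, were 97.7% and 94.4% on day 0 and 35.7% and 57.0% on day 13. On day 13 in WT, cells with at least 2 had 15.0% and cells with none 17.9%, beside 8.04% over all WT microglia on day 0. These gene sets were chosen after the data were seen, and their part in the difference between days was not tested further.

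T cells moved the other way. Their share was 39.1% and 39.2% on day 0 in WT and KO, 27.97% and 30.1% on day 13, and 32.5% and 33.5% on day 21. From day 0 to day 13, 64 of 84 members fell and 1 rose, where 6.64% of all 7090 genes fell and 6.88% rose. The median member changed by -0.56 against -0.02 over all genes on the log2 scale, and by -0.33 against 0.20 with total-count scaling. Only 31 members fell when the WT library of day 0, with 126 T cells, was left out, and 77 T cells of the KO library then stood for day 0.

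The deepest falls were in a small set. Rps27rt had 562 and 1040 CPM in T cells on day 0 (WT, KO), 75.1 and 80.9 CPM on day 13 and 125 and 325 CPM on day 21 (day 13 against day 0, -3.48 ± 0.21, adjusted p = 3.41e-09). Rps28, a small-subunit protein near the exit of the messenger RNA, had 3995 and 6428 CPM, then 1224 and 1439 CPM, then 1499 and 3243 CPM (-2.14 ± 0.15, 1.99e-08). Rps27, a zinc-binding protein of the small subunit, had 10118 and 14333 CPM, then 3779 and 4511 CPM, then 4855 and 8953 CPM (-1.76 ± 0.12, 1.95e-08). In all 3 genes the 2 day 0 libraries exceeded the 4 later ones, and the KO library of day 21 was the highest of those. Rpl6l (-1.96 ± 0.21) and Rps29 (-1.65 ± 0.13) were also among the deepest falls. Rps27l rose (1.14 ± 0.17, adjusted p = 1.33e-04), from 148 and 159 CPM to 415 and 373 CPM. As shares of all ribosomal protein UMIs, Rps27rt, Rps28, Rps27 and Rps29 were lower on day 13 in all 6 classes, not in T cells alone. This held in WT and in KO. In WT neutrophils, for example, Rps27 gave 2.63% of them on day 0 and 1.23% on day 13. No test over the classes was made.

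From day 13 to day 21, 13 of 84 members rose in T cells and 0 fell, where 0.973% of all genes rose and 1.2% fell. Rps27rt (1.43 ± 0.21), Rps28 (0.83 ± 0.15) and Rps27 (0.78 ± 0.12) lay farthest above the median member of 0.28. DESeq2 and total-count scaling each called 4, and leaving out a single library gave between 1 (without the KO library of day 21) and 45 (without the KO library of day 13). No member was called lower by DESeq2 either, and 52 had an unadjusted edgeR p under 0.05 in either direction. Counts from these alternatives lack the share of all genes beside them and describe sensitivity alone.

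The gated T cells of day 0 also differed in kind. Cells with at least 2 of Ccr7, Lef1, Tcf7 and S1pr1, genes of naive T cells, were 57.9% and 59.7% of the class on day 0, 29.8% and 30.7% on day 13 and 17.2% and 33.0% on day 21. Their ribosomal protein share exceeded that of T cells with none of these genes in each library where both could be read, at 42.9% against 32.2% in WT on day 0, 31.5% against 25.5% in WT on day 13 and 37.9% against 30.5% in KO on day 21. The part of these genes in the difference between days was not tested. On day 13 the share in WT T cells was 31.9% in the third of cells with fewest UMIs and 26.4% in the third with most.

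B cells had 23.2% and 24.2% on day 0, 36.6% and 37.9% on day 13, and 37.9% and 34.7% on day 21. On day 0, 43.6% and 22.7% of B cells had UMIs of at least 2 of Vpreb1, Vpreb3, Igll1, Dntt, Rag1 and Sox4, genes of B cell precursors, and at most 3.52% did in a later library. In WT on day 0 those cells had 19.3% and B cells with none of the genes 31.9%. On day 13, B cells with none of the genes had 36.98%. The part of precursors in the difference between days was not tested. NK cells had 19.7% and 18.8% on day 0 and 27.7% and 31.9% on day 13 and 28.9% and 27.1% on day 21, from only 23 to 56 cells per library. Neutrophils had 3.59% and 3.51% on day 0 and 6.71% and 6.13% on day 13. Monocytes/macrophages had 19.7% and 20.2% on day 0, 17.1% and 17.5% on day 13 and 21.4% and 21.9% on day 21. Days were tested gene by gene in microglia and T cells alone.

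The comparison of genotypes asked whether the loss of miR-155 goes with a different level of these genes. Over all cells the share was 12.97% in WT and 12.8% in KO on day 0, 19.5% and 22.3% on day 13, and 23.9% and 19.7% on day 21. The KO library thus lay 2.72 points above WT on day 13 and 4.22 points below on day 21, with 1 library on each side and no replicate check. When each KO library was given the class makeup of the WT library of its day, keeping its own levels within classes, the differences were 0.43 points on day 0, 0.97 on day 13 and -0.98 on day 21. With the WT library given the KO makeup instead, they were 0.37, 1.19 and -1.54 points. Cells in no class entered both calculations as a class of their own, and the makeup within it was not matched. On day 13 they held 9259643 of 20275803 UMIs in WT and 9733071 of 18060774 in KO. On day 21 they held 12938552 of 24234719 UMIs in WT and 5010002 of 15498011 in KO. Microglia gave 35.6% of the UMIs of the KO library and 5.41% of those of the WT library on day 21.

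Within classes, KO minus WT differences varied in size and sign. Microglia differed by -0.09 points on day 0, -0.09 on day 13 and -1.95 on day 21. T cells differed by 0.04, 2.17 and 0.996 points. Monocytes/macrophages differed by 0.54, 0.42 and 0.57 points. The farthest apart in points were NK cells on day 13, with 31.9% in KO and 27.7% in WT from 30 and 23 cells, and B cells on day 21 (-3.25 points). Neutrophils had 3.98% in KO and 6.55% in WT on day 21. On day 21, cells with at least 2 of the granule genes Ngp, Camp, Ltf and Chil3 were 83.7% of KO and 97.2% of WT neutrophils, with 4.04% and 6.58% ribosomal protein UMIs. Since these cells are most of the class, these values nearly repeat those of the class, and the part of granule genes in the difference was not tested.

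Over the 3 days, with day as a block, no member was called between genotypes in microglia, B cells, neutrophils or monocytes/macrophages. Of all genes, 0.0287% were called higher and 0.0766% lower in microglia, 0.0184% and 0% in B cells, 0.0173% and 0% in neutrophils, and 0% in either direction in monocytes/macrophages. At an unadjusted edgeR p under 0.05 there were 2, 10, 35 and 13 members in these 4 classes, and DESeq2 called 0 in each. Their median log2 fold changes were -0.15, -0.07, -0.26 and -0.01. Without the day 13 pair, 20 members were called lower in KO neutrophils and 13 higher in KO monocytes/macrophages. The share of all genes called in that fit, or at the unadjusted threshold, is not given here. These counts therefore describe sensitivity and are not read as a result about the members.

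In T cells 8 of 84 members were higher in KO and 0 were lower, where 0.409% of all genes were called higher and 0.183% lower. The 8 were Rps27rt (0.90 ± 0.17, edgeR adjusted p = 0.010), Rps28 (0.72 ± 0.12), Rps29 (0.61 ± 0.11), Rps27 (0.58 ± 0.10), Rpl38 (0.54 ± 0.10), Rps21 (0.49), Rpl35 (0.49) and Rpl41 (0.42). Rpl38 is a large-subunit protein known for its role in translating Hox messages in the mouse embryo, and Rpl41 encodes the smallest protein of the ribosome. Leaving out either library of day 0 or of day 21 gave 0 calls, and leaving out either of day 13 gave 13. With day as a block, leaving out 1 library takes its partner out of the contrast too. The omissions of the WT and the KO library of a day are therefore the same check, resting on the other days alone. DESeq2 also called 8 higher and 0 lower, and 18 members had an unadjusted edgeR p under 0.05. The share of all genes in these alternative fits or at that threshold is not given here, so these counts describe sensitivity alone.

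To set total levels aside, each gene was expressed as its share of all ribosomal protein UMIs of a class. On days 0 and 21 the share of each of these 8 genes was higher in KO than in WT in all 6 classes. On day 13 the ratios were smaller in every class, except for Rps21 in neutrophils, where the ratio was 1.21 on day 13 and 1.13 on day 0. Rps27, Rpl35 and Rpl41 were still above 1 in all 6 classes on day 13. Rps29 gave 1.96% of them in WT and 2.70% in KO T cells on day 0, 1.09% and 1.23% on day 13, and 0.967% and 1.86% on day 21. In microglia Rps29 gave 3.29% and 4.40%, then 2.39% and 2.24%, then 2.03% and 3.88%. Rps28 in microglia gave 0.866% and 1.28%, then 0.562% and 0.550%, then 0.558% and 1.08%. KO exceeded WT on days 0 and 21 for both genes, and on day 13 the libraries were close, with microglia in the other direction.

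Over the 6 classes, the median KO to WT ratio of the share of Rps27rt was 1.90 on day 0, 0.99 on day 13 and 2.59 on day 21. For Rps28 it was 1.47, 0.99 and 1.98. For Rps27 it was 1.40, 1.11 and 1.74, and for Rpl38 1.30, 1.07 and 1.74. On day 21, 19 of 84 members had a higher share in KO in all 6 classes and 34 a lower one, while on day 13 these numbers were 9 and 6. The same counts over all genes are not given here, so these numbers have no background to be read against. The classes of a library share its preparation and are not replicates of each other, so no test was made. Since the pattern was found by looking at the members called in T cells, it is a description. Nor was it confined to them: Rpl37, Rpl37a, Rpl36 and Rpl27, which were not called, also had ratios above 1 in all 6 classes on days 0 and 21.

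**Figure D4:**
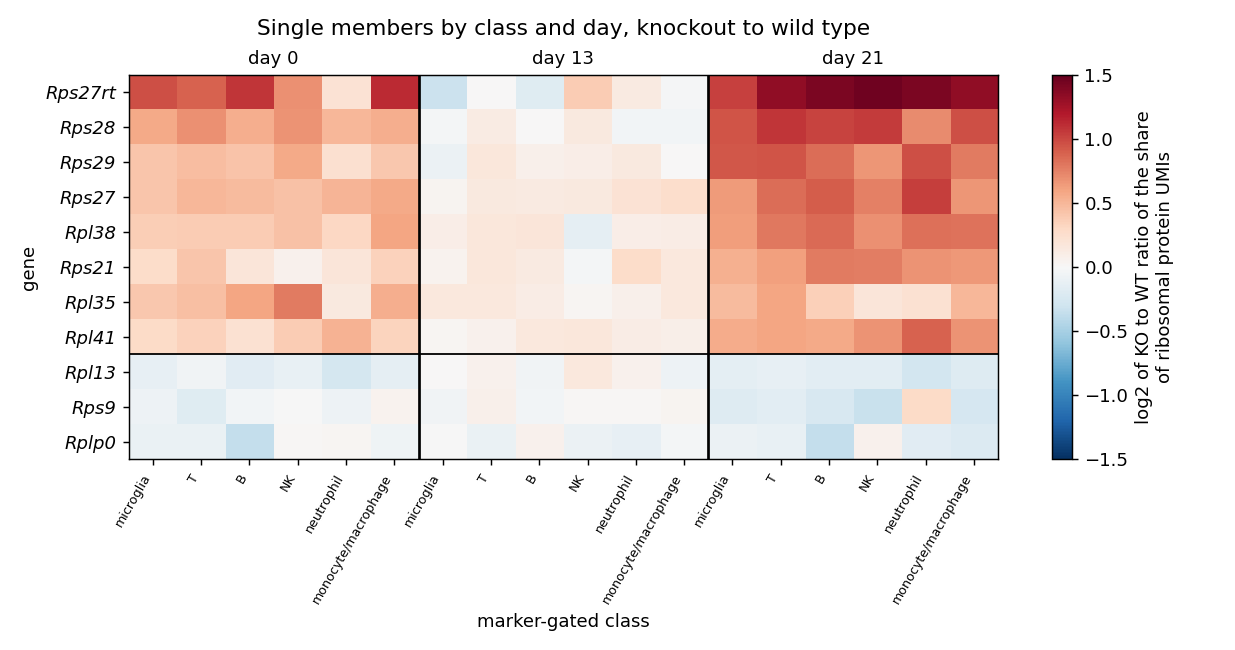
Colours give log2 of the KO to WT ratio of a gene's share of ribosomal protein UMIs, for each class and day (columns) and gene (rows). The upper 8 rows are the members called in T cells and the lower 3 are abundant members shown for contrast. The upper rows are red in all classes on days 0 and 21 and paler, with some blue, on day 13.

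The 8 called genes had a median annotated transcript length of 392 bases (GENCODE vM21), from 367.5 to 946, against a median of 723.5 for the 73 other members with at least 200 CPM. Across 80 members, length and the KO to WT ratio of the share had a Spearman correlation of -0.40 on day 0, -0.31 on day 13 and -0.50 on day 21, given as a description, since members share libraries and depth. The ratios of day 0 and day 21 went together across members (Spearman 0.79, n = 80). Length also went with the change of the share in T cells from day 0 to day 13 (Spearman 0.41, n = 80). That value too is a description. The symbols ending in -ps, left out of the members, gave 0.097% and 0.128% of UMIs on day 0, 0.065% and 0.061% on day 13 and 0.059% and 0.073% on day 21, in WT and KO.

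Single members that departed from the rest were read from a second set of fits, in which the library size was the sum of ribosomal protein UMIs, so that a call (edgeR adjusted p under 0.05) means a change in a gene's share of them. All other genes then move against these genes, and their calls are given as background. In T cells against microglia 10 members had a higher share and 11 a lower one (6.87% and 68.1% of all genes), with Rpsa (0.83 ± 0.20 SE on the log2 scale), Rps15a (0.60 ± 0.15) and Rpl12 (0.55 ± 0.22) highest. Rpl7l1 (-1.91 ± 0.45), Rps19bp1 (-1.47 ± 0.46) and Rps27l (-1.04 ± 0.40) were lowest, followed by Rps29 (-0.93 ± 0.14) and Rpl10 (-0.79 ± 0.16). In B against T cells 5 members were higher and 4 lower (6.13% and 9.79% of all genes). The 3 proteins Rplp0 (-0.47 ± 0.08), Rplp1 (-0.35 ± 0.09) and Rpsa (-0.29 ± 0.09), of which the first pair form the stalk that recruits elongation factors, had a lower share in B cells, and Rps20 (0.40 ± 0.10) and Rps27 (0.37 ± 0.08) a higher one. Monocytes/macrophages against microglia gave 7 higher, led by Rpsa, and 8 lower (8.88% and 52.3% of all genes), among them Rplp1 (-0.82 ± 0.14), while its stalk partner Rplp0 was higher (0.56 ± 0.11). Neutrophils against monocytes/macrophages gave 14 higher and 22 lower (52% and 15% of all genes). Rpl3 was lowest (-1.35 ± 0.18). Beside the sparsely counted Rpl3l, Rps27a, a fusion of ubiquitin with a small-subunit protein, was highest (1.08 ± 0.16).

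By the same measure, 7 members gained and 15 lost share in microglia from day 0 to day 13 (3.99% and 80.7% of all genes). Losses were deepest for Rps27rt (-2.36 ± 0.27), Rps19bp1 (-1.64 ± 0.18) and Rpl7l1 (-1.57 ± 0.17), the last pair being the matches of the rule that are not ribosomal proteins. Rps28 (-0.90 ± 0.21), Rps27 (-0.87 ± 0.17) and Rps29 (-0.69 ± 0.20) lost share as well. In T cells over these days 25 gained and 18 lost share (38.1% and 2.17% of all genes), with Rps27rt (-2.82 ± 0.21), Rps28 (-1.48 ± 0.13), Rps27 (-1.10 ± 0.10) and Rps29 (-0.98 ± 0.11) again among the losses. Rps27l, which lost share in microglia (-0.40 ± 0.17), gained most in T cells (1.80 ± 0.18). The difference between the classes was not tested. From day 13 to day 21, 4 gained and 6 lost share in T cells (0.621% and 12.8% of all genes), and Rps27rt gained share in microglia (1.31 ± 0.28), as the single call there (0.134% and 1.56% of all genes). By genotype in T cells, the same fit gave 8 higher and 0 lower (0.296% and 0.324% of all genes).

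Several members have paralogs. The spliced sequences of Rps27rt (chromosome 9, positions 114982366 to 114982739, minus strand) and Rps27 (chromosome 3, positions 90212522 to 90213651, minus strand) were 100% identical over 341 bases, so UMIs of the one may have been assigned to the other. Per 100 UMIs of Rps27, Rps27rt had 5.16 and 7.02 on day 0, 2.18 and 1.88 on day 13 and 2.57 and 3.93 on day 21, in WT and KO. Values of Rps27rt are therefore uncertain. Other paralogs were less alike, from 87.7% for Rpl36al and Rpl36a to 68.4% for Rpl7l1 and Rpl7. UMIs are read at 3′ ends and count a transcript once, so levels were not divided by length. On that scale members among the highest were Rpl13 (4646 CPM over the libraries), Rpl13a (4545), Rps14 (4182) and Rpl32 (3962). The lowest with any UMI were Rpl3l (2.08), Rpl39l (2.07), Rps19bp1 (41.6), Rpl7l1 (73.5) and Rpl6l (117).

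Partners need not move alike. The paralogs Rpl22l1 (641 CPM) and Rpl22 (823 CPM) were both higher in T cells than in microglia (1.54 ± 0.27 and 1.33 ± 0.26). Rpl36al was near the monocyte/macrophage level in T cells, at 884 to 1081 CPM against 911 to 1141 CPM. Its partner Rpl36a had 1442 to 3036 CPM in T cells and 780 to 1226 CPM in monocytes/macrophages.

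Rps27l, which p53 induces and which encodes a close relative of RPS27, was singled out after its values over the classes were seen. In conventional dendritic cells it gave 0.962% (WT) and 1.28% (KO) of the ribosomal protein UMIs on day 13 and 0.470% in WT on day 21, from 273, 419 and 224 UMIs in 25, 33 and 40 cells. This is 1798, 2421 and 1178 CPM. In microglia, T, B and NK cells, neutrophils, monocytes/macrophages and plasmacytoid dendritic cells it gave at most 0.281% in any library with at least 20 cells. Granulocyte-monocyte progenitors, with 30 cells in 1 library, were not included. B cells had 0.042% to 0.097%, and T cells 0.038% and 0.041% on day 0 and 0.148% and 0.124% on day 13. The dendritic cells of all 3 libraries thus lay above every library of these 7 classes, with no test of the difference.

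**Figure D5:**
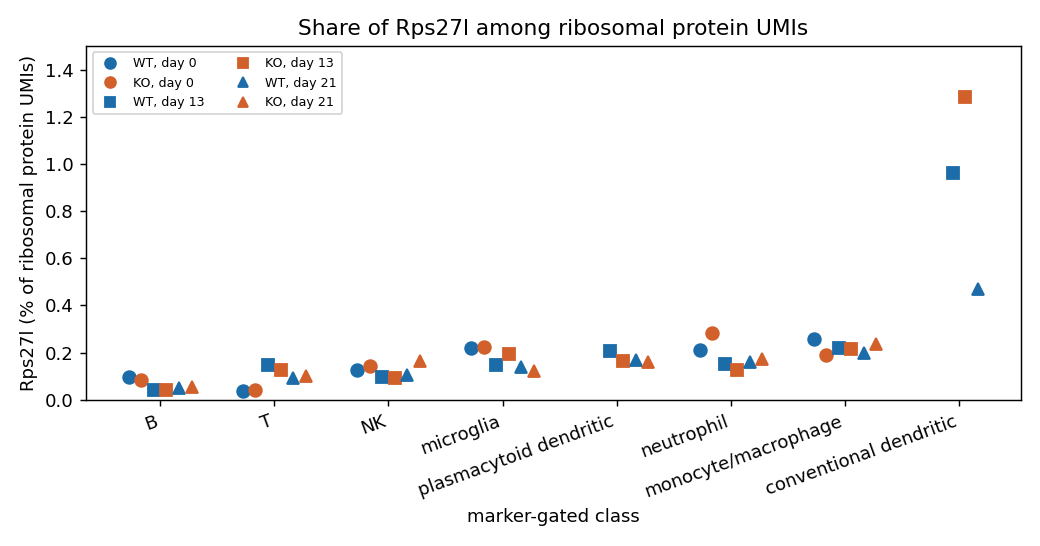
Points give the share of Rps27l among ribosomal protein UMIs (percent, vertical axis) in each class, 1 point per library with at least 20 cells of the class, for 8 classes without progenitors. Conventional dendritic cells lie between 0.470% and 1.28%, above all other points.

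The other genes of translation followed the ribosomal protein genes in part. In microglia from day 0 to day 13, Gnb2l1 (1.49 ± 0.16), a scaffold on the small subunit, and Fau (1.12 ± 0.16), which encodes a small-subunit protein fused to a ubiquitin-like one, both rose. All 10 elongation factors and other abundant translation genes rose, with a list median of 0.91. Among them were Eef1g (1.42 ± 0.18), Eef1b2 (1.26 ± 0.16) and Eef1a1 (1.01 ± 0.16), the last of which brings transfer RNA to the ribosome. These counts stand beside 16.2% of all genes that rose and 13.9% that fell. Of 28 initiation factors, 10 rose and 2 fell, with Eif2s3x (1.71 ± 0.25) and Eif3f (1.41 ± 0.16) ahead and a median of 0.19. Of 29 ribosome biogenesis genes tested, 6 rose, such as Npm1 (1.19 ± 0.17), and Rrp1b fell (-0.80 ± 0.20), with a median of 0.07. The count of biogenesis genes that rose is near the share of all genes that rose. Of 76 mitochondrial ribosomal protein genes, 20 rose and 0 fell (median 0.27). Among 11 regulators, Eif4ebp1, the mTOR target that restrains initiation, rose (0.81 ± 0.15), and Myc, a transcriptional activator of ribosome production, fell (-0.77 ± 0.22). All values are edgeR log2 fold changes ± SE, beside -0.03 for the median of all genes.

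In T cells over the same days, Fau (-0.51 ± 0.10) fell, as did 3 of the 10 elongation factors and other abundant translation genes. Of 28 initiation factors 2 fell, and of 28 biogenesis genes 5 fell, among them Gnl3 (-1.41 ± 0.28). Of all genes, 6.64% fell and 6.88% rose. The count of initiation factors is near the share of all genes that fell. Among the other abundant translation genes, Tpt1 fell by 0.39 on the log2 scale. Of 74 mitochondrial ribosomal protein genes, 1 rose (Mrpl4, 0.84 ± 0.25). No regulator was called, with a median of -0.11 over the 9 tested. From day 13 to day 21 none of these lists held a called gene in either class.

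Between classes, T cells exceeded microglia in all 10 elongation factors and other abundant translation genes. They were also higher in 19 of 28 initiation factors, 15 of 29 biogenesis genes and 40 of 76 mitochondrial ribosomal protein genes. Of 11 regulators, 6 were lower, such as Rptor of the mTOR complex (-1.94 ± 0.15). Of all genes, 29.7% were higher and 34.1% lower there. Neutrophils were below monocytes/macrophages in 9 of the 10 elongation factors and other abundant translation genes. They were also below them in 22 of 28 initiation factors and 23 of 28 biogenesis genes, where 33.9% of all genes were lower. Nucleolar Fbl had a log2 fold change of -2.90 ± 0.16 there, and the median of the biogenesis list was -1.66 against -0.97 for the ribosomal protein genes. Monocytes/macrophages exceeded microglia in 5 of 29 biogenesis genes and were lower in 8, while 47 of 76 mitochondrial ribosomal protein genes were higher and 1 lower, where 26.5% of all genes were higher and 31.4% lower. The biogenesis counts do not exceed those shares.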

How the data were processed

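The authors deposited raw UMI counts per gene and barcode, with no normalization. Cell Ranger 2.0.2 and mm10 stand in the submitters' processing notes. How reads shared by near copies were assigned is not given in the sources used here.

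Of 20030 barcodes, 23 were dropped for more than 10% mitochondrial UMIs, and none had fewer than 200 genes. Cells were gated into 9 classes by marker genes, and those with at least 20 cells in a library were used. No doublet caller was run. Ribosomal protein UMIs were summed per library and class and divided by all UMIs. Exact binomial intervals (95%) cover counting error only. Class pairs were tested by exact sign-flip permutation over libraries.

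UMI sums were tested with edgeR 4.0.16 (glmQLFit, glmQLFTest, TMM, filterByExpr) over all genes, with Benjamini-Hochberg adjustment at 0.05. In further fits the library size was set to the ribosomal protein UMIs. DESeq2 1.42.0, other scalings, gates, filters and left-out libraries were alternatives. Counts of members from these alternatives or at an unadjusted p are given without the share of all genes and describe sensitivity alone. The scripts were tested on simulated counts. Libraries of other days or genotypes served as replicates. Each library comes from 1 group, so p-values measure the spread between libraries, which may be technical.

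The members, markers and gene lists were chosen with earlier results of these data known. Named members are those farthest from the median member among the called ones in a comparison (up to 5 on each side), the 5 highest and 5 lowest, and the paralogs. From a list, up to 4 called genes were named. The subsets by naive, precursor, antigen presentation, immediate early and granule genes were chosen after seeing the data, as were Rps27l in dendritic cells and the genes given below the threshold. Some genes that these rules or lists cover are not reported here.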

Additional observations from a re-analysis of the deposited data

Results flagged for a closer look

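The KO minus WT difference in the ribosomal protein share over all cells had opposite signs on day 13 (2.72 points) and day 21 (-4.22 points). The difference between these days was not tested, since each rests on 1 library per genotype.

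From day 0 to day 13 the share moved in opposite directions between classes, in both genotypes. Microglia differed by 7.96 points in WT and 7.95 in KO, and B cells by 13.41 and 13.72. NK cells differed by 7.98 in WT and 13.07 in KO. T cells differed by -11.17 and -9.04. The differences between classes in these contrasts were not tested, and day cannot be told apart from the number prefix that the libraries of a day share.

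Genes with symbols ending in -ps, outside the members, gave 0.128% of UMIs in the KO library of day 0, above the 0.097% of the WT library of that day. This difference was not tested.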

How the results depend on the processing

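No paired analysis was possible because every group held 1 library with the replicate number 1, so that replicate numbers give no pairs. Day and library served as blocks where the comparisons allowed it. In the T minus microglia, monocyte/macrophage minus microglia and monocyte/macrophage minus neutrophil shares, leaving out a library gave 17.7 to 21.6, 4.61 to 6.85 and 13.9 to 15.4 points. With 5 libraries these cannot pass the exact test.

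With library size set to ribosomal protein UMIs, where a call means a departure from the other members, the counts higher and lower were 10 and 11 (T against microglia), 5 and 4 (B against T), 7 and 8 (monocytes/macrophages against microglia), 14 and 22 (neutrophils), 7 and 15 (microglia, day 13 against 0), 25 and 18 (T cells, day 13 against 0) and 4 and 6 (T cells, day 21 against 13). Without Rps19bp1 and Rpl7l1, 0 members were lower in T cells than in microglia and 0 higher in B than in T cells. Without the library block 46 members were higher in monocytes/macrophages than in microglia, and with total-count scaling 1 was lower. B against T gave 0 higher with total-count scaling, 0 lower with DESeq2 or a gate of 4 markers, and ranges of 1 to 2 higher and 0 to 1 lower without single libraries. DESeq2 and total-count scaling each gave 4 higher in T cells on day 21 against 13.

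Without the filter on low counts, genotype gave 1 higher in microglia, 6 lower in neutrophils and 9 higher in monocytes/macrophages, and a gate of 4 markers gave 1 lower in neutrophils. Leaving out single libraries gave 0 to 1 higher in microglia, 0 to 13 in T cells, 0 to 1 in B cells and 0 to 13 in monocytes/macrophages, and 0 to 20 lower in neutrophils. For microglia on day 13 against 0, total-count scaling gave 4 lower, no filter on low counts 2, and single libraries left out 1 to 3. On day 21 against 13, microglia gave 3 higher without that filter, and 0 to 5 higher and 0 to 2 lower without single libraries. T cells gave 31 to 74 lower on day 13 against 0 and 1 to 45 higher on day 21 against 13. The cause was not tested for any of these. No result reversed under any alternative run. Values of NK cells rest on 23 to 56 cells per library.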
